A study of Mus musculus with 8 samples.

Results

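The genes for platelet-derived growth factor (PDGF) signalling and for pericytes were followed in mouse mammary tumours. The set holds 10 genes: the ligand genes Pdgfa, Pdgfb, Pdgfc and Pdgfd, the receptor genes Pdgfra and Pdgfrb, and the mural cell genes Rgs5, Cspg4, Acta2 and Tagln. Its members were all the non-control array probes whose RefSeq accession maps to one of these genes. This gave 12 of the 55681 non-control probes, and 10 of the 20141 genes with a named probe. Pdgfa and Pdgfb each had a pair of probes and the other 8 genes had 1 probe each. All 12 probes were well above background on all 8 arrays and all 12 were tested.

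PDGF ligands are dimeric growth factors that bind and activate a pair of receptor tyrosine kinases. PDGF-A and PDGF-C act mainly through the alpha receptor, and PDGF-B and PDGF-D through the beta receptor. In growing vessels, endothelial cells secrete PDGF-B and the beta receptor on pericytes, the cells that wrap capillaries, brings those cells to the vessel wall. In tumours the alpha receptor is carried mainly by fibroblasts, and alpha smooth muscle actin and transgelin are made by smooth muscle cells, by some pericytes and by contractile fibroblasts.

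The study compared tumours of the 4T1 line, a mammary carcinoma of BALB/c origin that is grafted into mice, after infection of the cells for 24 h at a multiplicity of infection of 50. The PRH-labelled tumours (n = 4) came from cells given an adenovirus that carries PRH, a homeodomain transcription factor encoded by Hhex, and the control tumours (n = 4) from cells given an empty adenovirus. Female BALB/C mice aged 6 to 8 weeks received the infected cells in fat pad no. 3, and tumours were taken on day 22. All mice thus carried adenovirus-infected 4T1 cells, and the virus was given to the cells in culture and not to the mice. Both groups hold mouse numbers 1, 2, 3 and 5. The series design has RNA taken from each tumour, whereas the extraction protocol names endothelial isolates, so the material on the arrays is not settled here. In either material, fewer cells of a type and less RNA per cell cannot be told apart.

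Signals were scanner intensities, given below on a log2 scale relative to each array's 75th percentile signal, so that 0 is the 75th percentile of that array. Group differences are PRH-labelled minus control on this log2 scale. They were tested with limma (two-sided) with Benjamini-Hochberg adjustment over all 39463 tested probes, and a difference was called at an adjusted p under 0.05. Unless a block is named, the tests are unpaired, with the group alone in the fit. Levels of different probes are not comparable with each other. The Hhex probe was read beside the labels and was lower in the PRH-labelled tumours. It read -1.71, -1.46, -1.79 and -1.72 for mice 1, 2, 3 and 5, against -0.54, -0.33, -0.69 and -0.78 in the control tumours. The difference was -1.09 (SE 0.148, adjusted p = 0.00674), so the labels are used here only as names of the groups. The virus was given to cells in culture and tumours were taken later, so this probe cannot settle whether the labels are right. All arrays lay on 1 slide and in 1 scan. The PRH-labelled arrays were all in the first slide column and the control arrays all in the other, so the position on the slide and the group cannot be told apart. The 75th percentile itself was 722 ± 41.2 intensity units in PRH-labelled arrays and 1094 ± 131 in control arrays (SD, n = 4 each, exact permutation p = 0.0286, the smallest that 70 unpaired arrangements allow, while with the mouse numbers as pairs no p under 0.125 is possible), and the median over all tested probes was 0.22 higher in PRH-labelled arrays after scaling to it. With median centring that overall shift was -0.27, under quantile normalization, normexp with quantile normalization and the authors' deposited table it lay between 0.01 and 0.02, and with spike-in centring it was 0.09. The 5 scalings counted below are the 75th percentile, median centring, quantile normalization, normexp with quantile normalization and the authors' deposited table. Spike-in centring is not among them and is given apart. After scaling to the 75th percentile the shift also varied with brightness. Tested probes were split into 10 bins by mean signal, bin 10 being the brightest. The median difference was 0.61 in bin 3 (Pdgfd), 0.14 in bin 6 and -0.09 in bin 7 (Rgs5 and Cspg4). It was -0.16 in bin 8 (Pdgfra and Pdgfrb), -0.13 in bin 9 and 0.06 in bin 10 (Tagln and Acta2).

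Promoter windows from RefSeq (build GRCm38.p6, 250 bases before to 50 after a gene's start) were held for 7 of the 10 genes, in 8 windows. Those shown are of Pdgfra, the member with the steadiest difference, of Rgs5, whose groups also did not overlap, and of Acta2 and Pdgfc, the members whose windows hold a match to the CArG box, the element bound by serum response factor in smooth muscle genes. Capitals mark CArG matches with at most 1 G or C inside the core, searched on both strands. All are printed 5′ to 3′ on the gene's strand.
Pdgfra, chr5:75152001-75152300, plus strand: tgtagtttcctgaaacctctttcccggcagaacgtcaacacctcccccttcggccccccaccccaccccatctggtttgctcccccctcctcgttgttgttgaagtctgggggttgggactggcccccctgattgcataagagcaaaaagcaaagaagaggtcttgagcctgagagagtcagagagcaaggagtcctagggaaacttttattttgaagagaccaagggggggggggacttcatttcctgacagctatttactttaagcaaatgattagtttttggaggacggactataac
Rgs5, chr1:169655251-169655550, plus strand: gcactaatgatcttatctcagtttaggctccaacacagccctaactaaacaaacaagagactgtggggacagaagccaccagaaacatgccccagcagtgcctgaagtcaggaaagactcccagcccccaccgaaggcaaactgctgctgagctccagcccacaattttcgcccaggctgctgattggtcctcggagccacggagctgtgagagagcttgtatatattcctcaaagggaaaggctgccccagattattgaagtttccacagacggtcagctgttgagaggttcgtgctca
Acta2, chr19:34255324-34255623, minus strand: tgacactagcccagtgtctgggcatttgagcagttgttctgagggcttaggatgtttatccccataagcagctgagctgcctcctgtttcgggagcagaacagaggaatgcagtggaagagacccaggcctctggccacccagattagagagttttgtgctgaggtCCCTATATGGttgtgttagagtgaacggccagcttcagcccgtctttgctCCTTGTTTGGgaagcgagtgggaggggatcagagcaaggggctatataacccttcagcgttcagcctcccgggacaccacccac
Pdgfc, chr3:81036166-81036465, plus strand: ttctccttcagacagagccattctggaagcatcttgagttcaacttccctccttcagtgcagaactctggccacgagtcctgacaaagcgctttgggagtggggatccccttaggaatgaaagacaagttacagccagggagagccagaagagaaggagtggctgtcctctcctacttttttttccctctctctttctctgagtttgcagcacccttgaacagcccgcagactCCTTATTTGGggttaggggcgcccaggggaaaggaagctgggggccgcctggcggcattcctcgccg
The Acta2 window holds CCCTATATGG at position -84 and CCTTGTTTGG at -34 from the start, both with 1 G or C inside. The Pdgfc window holds CCTTATTTGG at -17, with none inside. Of all 32851 promoter windows, 9.98% hold a match with at most 1 G or C inside and 1.63% a match with none. The letters ATTAA, a core found in homeodomain sites of the PRH type, are in 0 of the 8 windows on either strand, and in 27.1% of all windows. A match or its absence describes these letters in these windows and no binding.

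Both receptor genes had less signal in the PRH-labelled tumours, and transgelin had more. Pdgfra and Pdgfrb fell by 0.73 and 0.66 on the log2 scale and Tagln rose by 0.91, and the groups did not overlap for any of these. Rgs5, a pericyte gene, also had lower values in every PRH-labelled tumour than in any control tumour, without passing the test. No ligand probe was called. In all, 3 of the 12 probes were called (25%), 1 higher and 2 lower, against 26.2% of all tested probes (16.1% higher and 10.1% lower). The groups did not overlap for 4 of the 12 (1 higher and 3 lower), against 31.5% of all tested probes (18.8% higher and 12.7% lower). Both shares are near those of the whole array, so the counts say nothing particular about the set. With median centring 0 member probes were called higher and 3 lower, against 3017 higher and 10470 lower over all tested probes, where the 75th percentile gave 6354 and 3973. Centring on the 7 spike-in probes ended every member call: Pdgfra then differed by -0.86 (adjusted p = 0.238), Pdgfrb by -0.78 (0.303) and Tagln by 0.78 (0.333), and only 3 of all tested probes were called in limma (8023 at an unadjusted p under 0.05). Of the tested probes with a gene symbol, 24.3% were called (9.89% higher and 14.4% lower) and 30.9% had groups that did not overlap (12.5% higher and 18.4% lower). The median difference over the 12 probes was 0.31, against 0.22 over all tested probes and -0.05 over those with a gene symbol. By the brightest probe of each gene it was 0.29 for the members and -0.02 for all named genes. Among named probes of the same brightness bin, 11.8% had a difference at or below that of Pdgfra. The share was 15.7% for Pdgfrb, 12.3% for Rgs5 and 97.8% for Tagln.

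**Figure D1:**
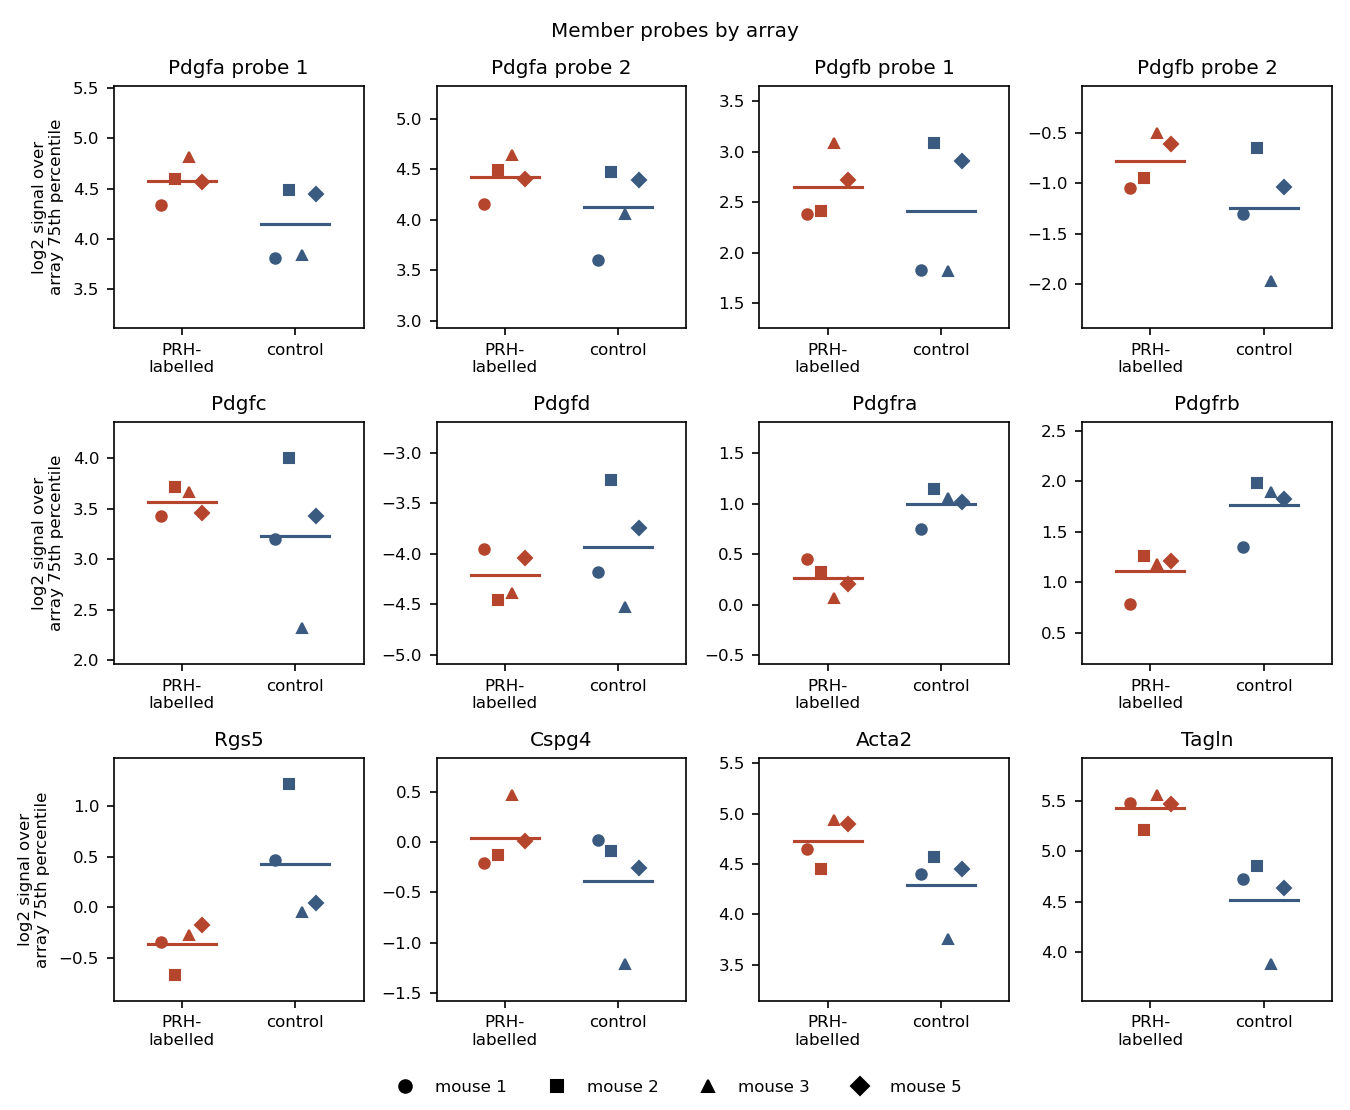
Each panel plots 1 probe in the 8 arrays, as log2 signal over the array's 75th percentile, with PRH-labelled tumours at the left and control tumours at the right. The marker shape gives the mouse number and the line the group mean. Pdgfra, Pdgfrb and Rgs5 lie lower in all 4 PRH-labelled tumours and Tagln lies higher, while every other probe overlaps between the groups. Pdgfa probe 1 is A_55_P2125588 and probe 2 is A_55_P2007470. Pdgfb probe 1 is A_55_P2047310 and probe 2 is A_55_P1974441.

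Pdgfa encodes PDGF-A, a ligand of the alpha receptor that many epithelial and tumour cells make. Probe A_55_P2125588 read 4.34, 4.59, 4.82 and 4.56 in PRH-labelled mice 1, 2, 3 and 5, against 3.81, 4.49, 3.84 and 4.45 in control mice 1, 2, 3 and 5. The groups overlapped, with control mice 1 and 3 low and control mice 2 and 5 inside the PRH-labelled range, and the difference was 0.43 (95% interval -0.06 to 0.92, adjusted p = 0.173). The other probe, A_55_P2007470, read 4.16 to 4.65 in PRH-labelled tumours and 3.60 to 4.47 in control tumours, a difference of 0.29 (SE 0.221, adjusted p = 0.353).

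Pdgfb encodes PDGF-B, the endothelial ligand of the beta receptor. Probe A_55_P2047310 read 2.38, 2.42, 3.09 and 2.72 in PRH-labelled mice, against 1.83, 3.09, 1.82 and 2.91 in control mice. The control tumours spanned more than the PRH-labelled ones on both sides, and the difference was 0.24 (SE 0.348, adjusted p = 0.623). The dimmer probe A_55_P1974441 read -1.05 to -0.50 in PRH-labelled tumours and -1.97 to -0.65 in control tumours, a difference of 0.47 (SE 0.290, adjusted p = 0.269).

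Pdgfc encodes a ligand of the alpha receptor that is secreted with a CUB domain and must be cleaved to become active. It read 3.43, 3.71, 3.66 and 3.46 in PRH-labelled mice, against 3.20, 4.00, 2.31 and 3.43 in control mice. The PRH-labelled values lay close together and inside the control range, and the difference was 0.33 (SE 0.331, adjusted p = 0.479). Pdgfd encodes the beta receptor's other ligand and was a dim probe, with signals of 33.3 to 45.7 intensity units in PRH-labelled tumours and 47.0 to 133.4 in control tumours before scaling. On the scaled log2 values it read -4.45 to -3.96 in PRH-labelled tumours and -4.53 to -3.27 in control tumours, so the groups overlapped, with a difference of -0.28 (SE 0.283, adjusted p = 0.484).

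The sign of the Pdgfa, Pdgfb and Pdgfc differences depended on the scaling. All were above 0 in 4 of 5 scalings and below 0 with median centring, with no call in any, and so were Cspg4 and Acta2. Relative to the median of all tested probes under the same scaling, these differences were above 0 in each of the 5, with the first Pdgfa probe between 0.21 and 0.45. The 75th percentile and median centring differ by a constant per array, so their relative values are the same and count as 1. Pdgfd was below 0 in each of the 5, between -0.81 and -0.15, without a call.

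**Figure D2:**
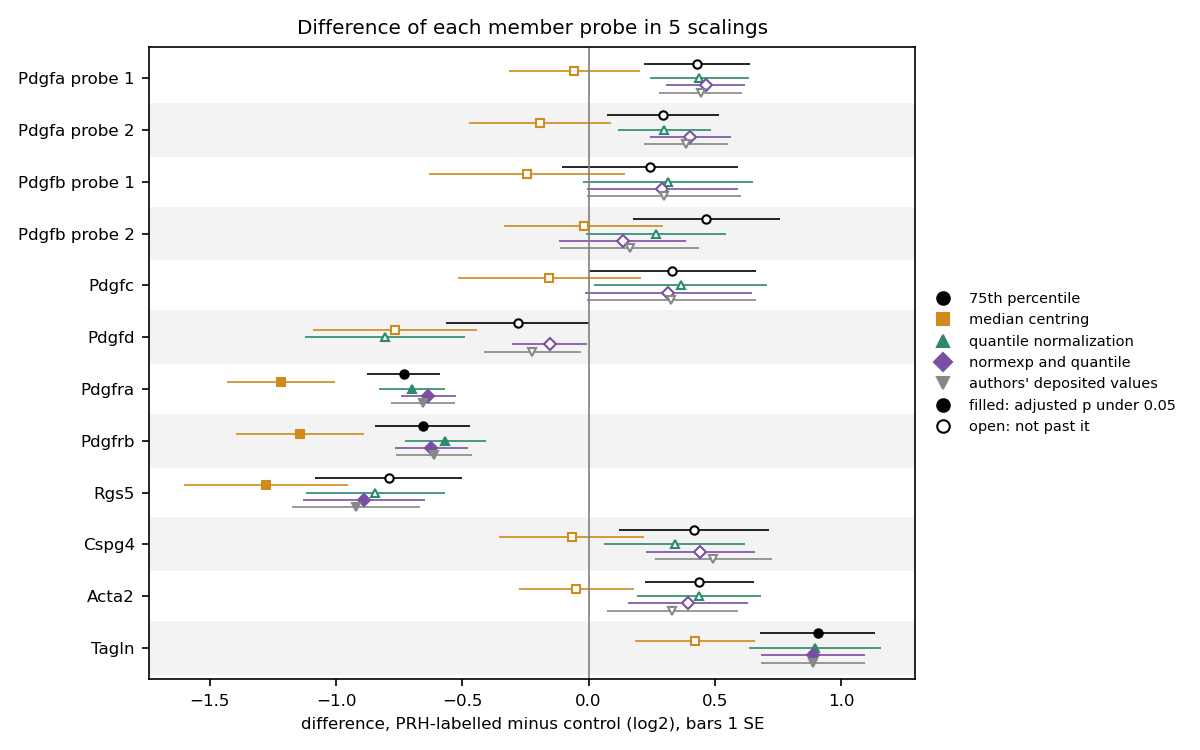
The difference, PRH-labelled minus control on the log2 scale, is plotted for each of the 12 probes under 5 scalings, with bars of 1 SE and filled points where the adjusted p is under 0.05. Pdgfra and Pdgfrb are called in all 5, Tagln in 4 and Rgs5 in 3. Spike-in centring, under which 0 member probes were called, is not plotted.

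Pdgfra encodes the alpha receptor, which binds PDGF-A and PDGF-C and marks many fibroblasts. It read 0.45, 0.32, 0.07 and 0.20 in PRH-labelled mice 1, 2, 3 and 5, against 0.75, 1.15, 1.06 and 1.02 in control mice 1, 2, 3 and 5. Every PRH-labelled value was below every control value, and the means were 0.26 ± 0.16 in PRH-labelled tumours and 0.99 ± 0.17 in control tumours (SD, n = 4 each). Pdgfra fell by 0.73 (SE 0.146, limma adjusted p = 0.0115, 95% interval -1.07 to -0.39), a level 1.66-fold lower. The array carries this probe on 10 spots, whose SD within an array was between 0.102 and 0.201. It was called in all 5 scalings, with differences between -1.22 and -0.63, and in all 8 fits that left out 1 array, with an adjusted p of at most 0.0372.

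Pdgfrb encodes the beta receptor, the one pericytes need for recruitment to vessels. It read 0.78, 1.26, 1.18 and 1.21 in PRH-labelled mice, against 1.35, 1.98, 1.90 and 1.83 in control mice. Mouse 1 was the lowest of each group, and the highest PRH-labelled value lay just under the lowest control value. The means were 1.11 ± 0.22 in PRH-labelled tumours and 1.76 ± 0.29 in control tumours (SD, n = 4 each), and Pdgfrb fell by 0.66 (SE 0.188, limma adjusted p = 0.0376, 95% interval -1.09 to -0.22). It was called in all 5 scalings, between -1.14 and -0.57. The call was not steady when 1 array was left out. It held without control 1 and was lost without each of the other 7 arrays in turn, with an adjusted p of up to 0.0964 without control 2. The sign stayed the same in all 8 of these fits, with differences between -0.80 and -0.55. Without the filter on dim probes its adjusted p was 0.0548.

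Before scaling, the signals of both receptors were lower in all PRH-labelled tumours, at 729 to 954 intensity units for Pdgfra against 1683 to 2841 in control tumours, and at 1170 to 1821 for Pdgfrb against 2550 to 5072. The 75th percentile was itself lower in every PRH-labelled array, at 679 to 762 intensity units against 1003 to 1283 in control arrays. Lower signals before scaling are therefore no separate support for a change of either gene. The ratio of the alpha to the beta receptor probe within an array, in which a shift of the whole array cancels, was -1.11 to -0.34 on the log2 scale in PRH-labelled tumours and -0.84 to -0.60 in control tumours. These overlapped, with a difference of -0.08. The ligand to receptor ratios did not overlap: that of Pdgfa to Pdgfra was 3.89 to 4.75 in PRH-labelled tumours and 2.78 to 3.43 in control tumours, and that of Pdgfb to Pdgfrb 1.16 to 1.91 in PRH-labelled tumours and -0.08 to 1.10 in control tumours. These ratios, of the brighter probe of each ligand, were chosen after the values had been seen and carry no test.

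Rgs5 encodes a regulator of G protein signalling that is a standard pericyte marker. It read -0.34, -0.67, -0.27 and -0.18 in PRH-labelled mice 1, 2, 3 and 5, against 0.47, 1.23, -0.04 and 0.05 in control mice 1, 2, 3 and 5. The groups did not overlap, but control mice 3 and 5 lay close to the PRH-labelled values and control 2 well above them. The difference was -0.79 (SE 0.291, 95% interval -1.47 to -0.12, adjusted p = 0.0831). It passed the threshold in 3 of the 5 scalings, at -1.28 with median centring (adjusted p = 0.0208), -0.89 with normexp background correction (0.0306) and -0.92 in the authors' deposited table of normalized values (0.0329). It passed in 0 of the 8 fits without 1 array, with differences between -0.95 and -0.52.

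Cspg4 encodes the proteoglycan NG2, another pericyte marker that some tumour cells also carry. It read -0.21, -0.13, 0.46 and 0.01 in PRH-labelled mice, against 0.02, -0.09, -1.20 and -0.26 in control mice. Control 3 was far below the other 7 arrays, and the difference was 0.42 (SE 0.297, adjusted p = 0.328). Within an array, the log2 ratio of Rgs5 to Cspg4 was -0.73 to -0.13 in PRH-labelled tumours and 0.30 to 1.32 in control tumours, a pair chosen after the values had been seen and not tested. The ratio of Rgs5 to Pdgfrb overlapped, at -1.93 to -1.12 in PRH-labelled tumours and -1.94 to -0.76 in control tumours.

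Acta2 encodes alpha smooth muscle actin. It read 4.65, 4.45, 4.93 and 4.90 in PRH-labelled mice, against 4.40, 4.57, 3.76 and 4.45 in control mice. Control 3 was again the lowest, the groups overlapped, and the difference was 0.44 (SE 0.215, 95% interval -0.06 to 0.94, adjusted p = 0.174). The probe has 10 spots, with an SD within an array of 0.0966 to 0.188, below the spread between control arrays (SD 0.36).

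Tagln encodes transgelin (SM22-alpha), an actin-binding protein of smooth muscle. It read 5.48, 5.21, 5.56 and 5.47 in PRH-labelled mice, against 4.72, 4.85, 3.88 and 4.63 in control mice. Every PRH-labelled value was above every control value, with means of 5.43 ± 0.15 in PRH-labelled tumours and 4.52 ± 0.44 in control tumours (SD, n = 4 each). Tagln rose by 0.91 (SE 0.228, limma adjusted p = 0.0243, 95% interval 0.38 to 1.44), which is 1.87 times the control level. It was called in 4 of 5 scalings, and with median centring the difference was 0.42 (adjusted p = 0.212). The call was lost without PRH-labelled mouse 1 (adjusted p = 0.0626), 3 (0.0583) or 5 (0.0620) and without control 5 (0.0540), and it held without each of the other 4 arrays. Before scaling the groups overlapped, at 28136 to 33361 intensity units in PRH-labelled tumours and 15939 to 37095 in control tumours.

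Tagln and Acta2 both belong to the contractile apparatus, and whether their changes differ was not tested. The log2 ratio of Tagln to Acta2 within an array was 0.57 to 0.83 in PRH-labelled tumours and 0.12 to 0.33 in control tumours, without overlap and with a difference of 0.47. The ratio of Tagln to Pdgfrb was 3.95 to 4.70 in PRH-labelled tumours and 1.98 to 3.38 in control tumours, and that of Tagln to Rgs5 was 5.65 to 5.88 in PRH-labelled tumours and 3.63 to 4.59 in control tumours. Neither overlapped. These ratios also were chosen after the values had been seen.

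The control tumours varied more than the PRH-labelled ones. The SD was larger among control tumours for 12 of the 12 member probes, against 62.6% of all tested probes, whose median SD was 0.248 in PRH-labelled tumours and 0.378 in control tumours. Of the deviations from the group mean, control 3 had the lowest of all 8 arrays for 8 of the 12 probes. For Pdgfc, control 3 lay 0.92 below its group mean and control 2 lay 0.77 above it.

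Values of Acta2, Tagln and Cspg4 followed each other within groups, most of all among control tumours. Control 3 was the lowest array for each of them, at -0.54, -0.64 and -0.82 from its group mean. The Pearson correlation of values centred on their group means was 0.95 for Acta2 with Tagln, 0.89 for Cspg4 with Acta2 and 0.90 for Cspg4 with Tagln, over 8 arrays that share a slide. The first Pdgfa and the first Pdgfb probe correlated at 0.97, and the paired probes of one gene at 0.92 for Pdgfa and 0.87 for Pdgfb. Pdgfrb and Rgs5 correlated at 0.06, Pdgfrb and Tagln at -0.25, and Pdgfra and Cspg4 at -0.54. For the 2 receptors the groups differed in sign: Pdgfra and Pdgfrb correlated at -0.66 among the 4 PRH-labelled arrays and at 0.996 among the 4 control arrays, and the pooled value was 0.30. Control 1 was the lowest control array for both receptors, at -0.25 and -0.42 from its group mean. Cspg4 and Tagln correlated at 0.573 among PRH-labelled arrays and at 0.98 among control arrays, and Acta2 and Tagln at 0.875 among PRH-labelled arrays and at 0.99 among control arrays. These values describe few arrays and were not tested.

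**Figure D3:**
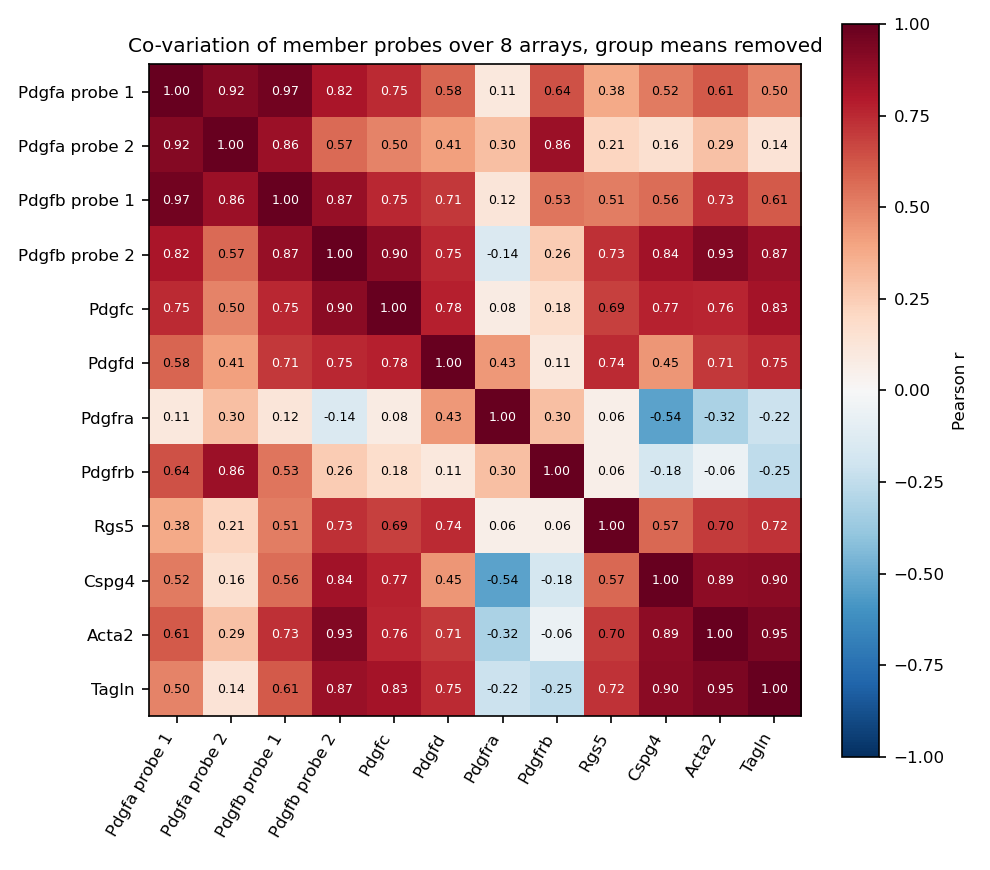
The grid gives the Pearson correlation between each pair of the 12 member probes over the 8 arrays, after each group's mean was removed. Acta2, Tagln and Cspg4 correlate at 0.89 to 0.95 with each other. The 0.30 of Pdgfra with Pdgfrb pools -0.66 among PRH-labelled arrays and 0.996 among control arrays.

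Among 16372 other named genes, each by its brightest tested probe, those whose group-centred values were most like Acta2 were Kat6b at an r of 0.986, Myh14 at 0.979 and Tpm2, a tropomyosin of muscle, at 0.976. The genes most like Tagln were Pramel51 at 0.991, Samd5 and Wnt11, and those most like Cspg4 were Esrrb, Cstdc2 and Actg2, the gamma actin of smooth muscle. Pdgfra was most like Ifit1 at 0.978, Herc6 at 0.976 and Lilr4b at 0.975, of which Ifit1 and Herc6 are interferon-induced genes. Among the genes most like Pdgfrb were Map4 at 0.993 and Taf4, and Rgs5 was most like Zdhhc14 at 0.983, Pgam2 and Smtnl1. The closest to the ligands were Sik1, Fggy and Zfp629 for Pdgfa, Prss46, Copg2 and Meis1 for Pdgfb, Kif26a, Slc6a6 and Sox7 for Pdgfc, and C1qtnf9, Klhl41 and Homer3 for Pdgfd. Over 8 arrays between 31 genes, for Rgs5, and 404 genes, for Pdgfrb, passed an r of 0.9.

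Other genes of the pathway and of mural cells were taken from 4 lists, of which 60 genes were tested. In these lists 4 genes were called higher and 11 lower, against 10.7% higher and 13.1% lower of 16373 named genes by their brightest probe. The 4 include Myocd, which entered the test through the group where it is high. With median centring 1 list gene was called higher and 23 lower, where the 39463 tested probes gave 3017 higher and 10470 lower.

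The receptor adaptor list holds the proteins that dock on activated PDGF receptors and pass the signal on, and the enzymes they recruit. Of its 16 genes 7 fell and 1 rose, with a median difference of -0.47 against -0.02 over all named genes. Thus 50% of the list was called, against 23.9% of named genes by their brightest probe (10.7% higher and 13.1% lower). Cbl, the ubiquitin ligase that marks activated receptors for degradation, read -2.67, -2.70, -2.70 and -2.96 in PRH-labelled mice, against -1.03, -0.92, -1.13 and -1.42 in control mice, and fell by 1.64 (SE 0.151, adjusted p = 0.00674). Pik3ca, the catalytic subunit of PI3-kinase, read -2.18 to -1.88 in PRH-labelled tumours and -1.12 to -0.30 in control tumours, and fell by 1.41 (SE 0.210, adjusted p = 0.00682). Grb2, the adaptor that links receptors to Ras, read 1.22 to 1.59 in PRH-labelled tumours and 2.16 to 2.69 in control tumours, and fell by 1.13 (SE 0.161, adjusted p = 0.00674). A second Grb2 probe differed by -0.43. The PI3-kinase regulatory subunit gene Pik3r1 fell by 0.77 (adjusted p = 0.00879), and the adaptor genes Crkl and Nck1 each fell by 0.74 (adjusted p = 0.0112 and 0.014). These 6 genes were called in all 5 scalings and in all 8 fits without 1 array. With spike-in centring, which is not among the 5, 0 genes of the lists were called.

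The remaining calls of that list were less steady. Sos1, the exchange factor that Grb2 carries to Ras, fell by 1.12 (adjusted p = 0.0404), with groups that overlapped. It was called in 3 of the 5 scalings, with differences between -1.70 and -0.49. Without any 1 array other than control 1, its adjusted p was 0.0605 to 0.101. Src, a kinase that binds the activated receptors, rose by 0.62 (adjusted p = 0.018), a call that held in 1 of the 5 scalings and was lost without PRH-labelled mouse 5 (0.0529) or control 5 (0.0523). The Src probe is dim, with means of -3.10 in PRH-labelled and -3.72 in control tumours, and its difference was not set against probes as bright. Nck2 differed by 0.55 (adjusted p = 0.104) and Shc1 by -0.40 (adjusted p = 0.133), without passing. The number of genes of this list that were called lower was between 6 and 9 over the 5 scalings.

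Of the 10 genes for ligand processing and co-receptors, 1 fell and none rose, with a median of -0.05. The share called was 10%, against 23.9% of named genes by their brightest probe. Plat, the tissue plasminogen activator that cleaves PDGF-C, read 0.94 to 1.22 in PRH-labelled tumours and 1.43 to 1.78 in control tumours, and fell by 0.46 (SE 0.132, adjusted p = 0.0371). It was called in 3 of the 5 scalings, between -0.95 and -0.32. Blocked by mouse number, its adjusted p was 0.0751, and without any 1 array other than control 1 it was 0.0683 to 0.101. The co-receptor gene Nrp1 differed by -0.55 (adjusted p = 0.12), passing in 3 of the 5 scalings, and the convertase gene Pcsk5 by -0.45 (adjusted p = 0.135).

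Of 17 further mural cell genes tested, 2 rose and 1 fell, with a median of 0.15. The share called was 17.6%, against 23.9% of named genes by their brightest probe. Cd248, which encodes endosialin of pericytes and stromal fibroblasts, read 3.05 to 3.50 in PRH-labelled tumours and 1.98 to 2.65 in control tumours, and rose by 0.97 (SE 0.184, adjusted p = 0.0103). Angpt1, the Tie2 ligand that mural cells secrete, read -2.69 to -1.81 in PRH-labelled tumours and -1.15 to -0.46 in control tumours, and fell by 1.35 (SE 0.255, adjusted p = 0.0101). Both held in all 8 fits without 1 array, Angpt1 in all 5 scalings and Cd248 in 4. Higd1b, a pericyte marker in mouse lung and brain, rose by 1.04 (SE 0.309, adjusted p = 0.042). Its adjusted p was 0.0628 with the mouse number as a block, and 0.0664 to 0.0993 without any 1 array other than control 2. Cox4i2 passed only with that block (adjusted p = 0.026). Tbx18, a transcription factor of mural cells, differed by -0.80 (adjusted p = 0.0551), though it passed in the other 4 of the 5 scalings, and Ndufa4l2 by 0.64 (adjusted p = 0.0821). Foxf2 was not tested.

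Of 17 contractile smooth muscle genes tested, 1 was called higher and 2 fell, with a median of -0.03. The share called was 17.6%, against 23.9% of named genes by their brightest probe. The 1 called higher is Myocd, the coactivator of serum response factor, a dim probe that read -4.90 to -4.20 in PRH-labelled tumours and -6.72 to -5.31 in control tumours. It was well above background on 4 of 4 PRH-labelled arrays and 1 of 4 control arrays, so it entered the test through the group where it is high and its call is given as a description only. Its difference, 1.59 here, was as low as 0.19 under another scaling. Itga8, an integrin subunit of smooth muscle, fell by 0.88 (adjusted p = 0.0295), and Cald1, the actin-binding caldesmon, fell by 0.62 (adjusted p = 0.0336). Itga8 was lost without PRH-labelled mouse 1, 3 or 5 or without control 2 or 5 (adjusted p = 0.0656 to 0.077). Cald1 was lost without PRH-labelled mouse 1 or 2 or without control 2, 3 or 5 (0.0549 to 0.0894), and its adjusted p was 0.053 with the mouse number as a block. Mylk differed by 0.68 (adjusted p = 0.072) and Actn1 by -0.50 (adjusted p = 0.0649). Lmod1 was not tested.

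**Figure D4:**
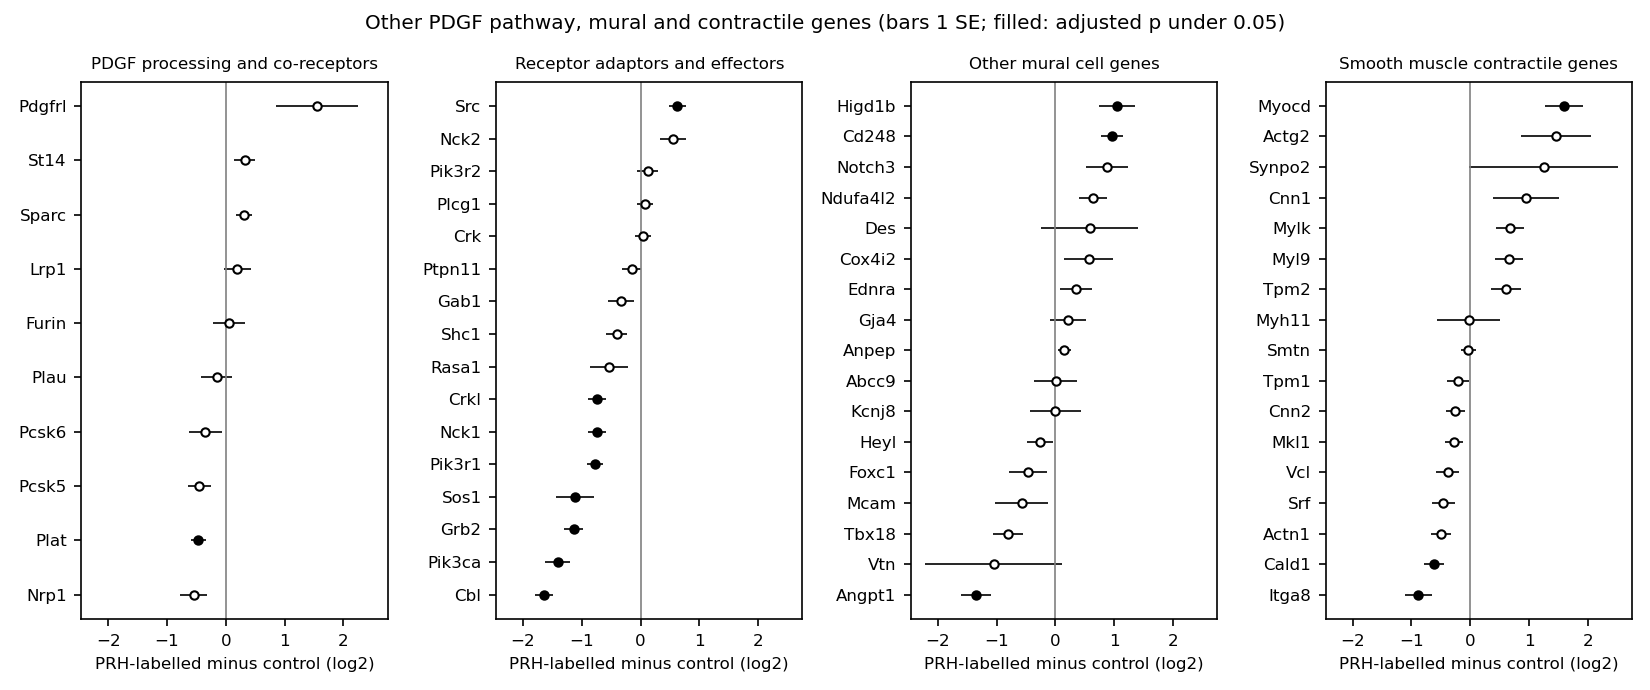
Each point is 1 gene of the 4 lists, by its brightest tested probe, placed at its difference, PRH-labelled minus control on the log2 scale, with bars of 1 SE, and filled where the adjusted p is under 0.05. In the adaptor list 7 filled points lie below 0 and 1 above, and the other lists hold 1 to 3 filled points each. Of all named genes by their brightest probe, 23.9% were called.

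Markers of other cell types were also measured. Beside the calls below, 10.7% of all named genes by their brightest probe were called higher and 13.1% lower. The summed signal of 8 epithelial markers, relative to the 75th percentile of each array, was 382 to 508 in PRH-labelled tumours and 286 to 369 in control tumours, without overlap. Without Krt18, the brightest of them, the sums were 123 to 205 in PRH-labelled tumours and 82.1 to 151 in control tumours and overlapped. Of the 8, Krt14 rose by 1.93 (adjusted p = 0.0188, and 0.0505 without PRH-labelled mouse 1). Krt18 rose by 0.52 (0.026), a call that held in 1 of the 5 scalings and was lost without any 1 PRH-labelled array or without control 2 (0.0528 to 0.0682). Krt8 differed by -0.44 (0.0763). The 14 fibroblast markers summed to 434 to 497 in PRH-labelled tumours and 409 to 661 in control tumours, with none called. Of these 14, 10 had differences below 0, with a median of -0.34, and 6 were called lower with median centring and none in the others of the 5 scalings. Median centring also called 10470 of all 39463 tested probes lower. In this list Col1a1 read 6.15 in PRH-labelled tumours and 6.07 in control tumours, and Dcn read 4.04 in PRH-labelled and 4.65 in control tumours. The 14 endothelial markers tested summed to 56.5 to 61.4 in PRH-labelled tumours and 24.1 to 66.0 in control tumours, with control 3 the lowest. Pecam1 read 0.91 in PRH-labelled tumours and 0.45 in control tumours, and Cdh5 read 1.24 in PRH-labelled and 1.30 in control tumours. One endothelial gene, Kdr, rose by 1.17 (adjusted p = 0.0243), while its other probe differed by -0.48, and the call held without control 1 and without PRH-labelled mouse 3 and was lost without each other array (0.0525 to 0.0673). The part of these cell types in the differences of Tagln and of the receptors was not tested.

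The 11 skeletal muscle markers summed to 18.3 to 29.5 in PRH-labelled tumours and 9.96 to 29.9 in control tumours, and 2 of them rose, Mylpf by 1.31 (adjusted p = 0.00674, called in all 5 scalings, with differences down to 0.37) and Tnni2 by 0.73 (0.0383). The Mylpf probe is dim, with means of -3.44 in PRH-labelled and -4.75 in control tumours, and its difference was not set against probes as bright. Tnni2 was called in 4 of the 5 scalings, and without any 1 array other than PRH-labelled mouse 1 its adjusted p was 0.0565 to 0.0876. Acta1 read 0.86 in PRH-labelled tumours and 0.31 in control tumours, and Ckm read -2.89 in PRH-labelled and -3.39 in control tumours. The 7 adipocyte markers tested summed to 8.24 to 12.5 in PRH-labelled tumours and 3.28 to 105 in control tumours, with control 3 the lowest and control 1 the highest, and none was called. Adipoq read -2.27 in PRH-labelled tumours and -1.94 in control tumours. Of 5 macrophage markers with a probe, whose sums were 109 to 156 in PRH-labelled tumours and 110 to 173 in control tumours, Mrc1 fell by 1.16 (adjusted p = 0.0268), a call lost without PRH-labelled mouse 2, 3 or 5 (0.0546 to 0.0684). The brightest Adgre1 probe read 2.36 in PRH-labelled tumours and 2.34 in control tumours, while its other probe differed by -0.71 and was called. None of the 5 platelet markers tested was called, with sums of 7.61 to 10.7 in PRH-labelled tumours and 5.07 to 10.4 in control tumours, and Pf4 read 3.08 in PRH-labelled and 2.80 in control tumours. All of these defining markers were well above background on all 8 arrays, except Adipoq on 1 control array. Control 3 thus had the lowest endothelial, skeletal muscle and adipocyte sums and the highest fibroblast and macrophage sums of the 8 arrays. The part of control 3 and control 1 in the spread of the mural genes was not tested.

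**Figure D5:**
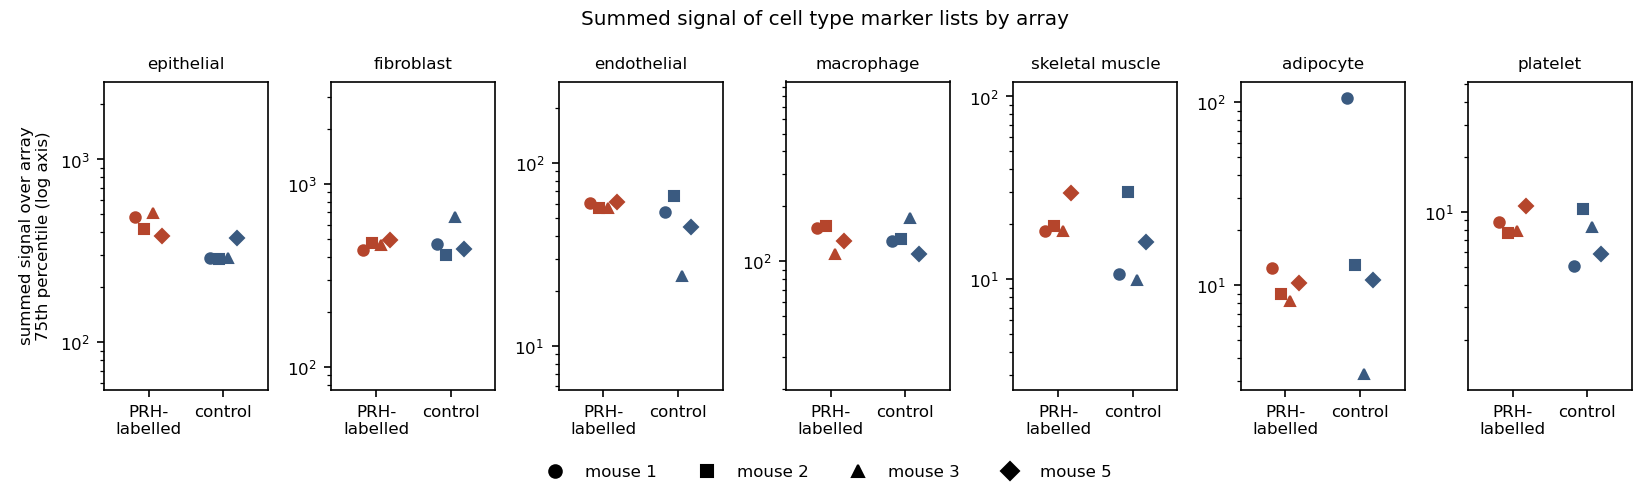
For each of 7 cell type lists the summed signal of the tested markers, relative to the array's 75th percentile and on a log axis, is plotted for PRH-labelled tumours at the left and control tumours at the right, with the marker shape giving the mouse number. The epithelial sums do not overlap, at 382 to 508 in PRH-labelled tumours and 286 to 369 in control tumours, and control 3 is the lowest of all arrays for the endothelial, skeletal muscle and adipocyte lists and the highest for the fibroblast and macrophage lists.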

How the data were processed

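Agilent mouse arrays with 1 colour, Cy3, carried cRNA made from 50 ng of RNA each per the labels' protocols. Intensities were deposited as Feature Extraction scanner files, made with version 10.7.3.1 per the file headers (9.1 per the submitters' processing notes), on a design that the headers place on mm9. This intensity was background-corrected within the array, per the file headers. The authors also deposited a table of normalized linear intensities, normalised in R per the labels. Its medians were 123.83 to 125.9, its rank correlation with the scanner values was 0.9888 to 0.9954, and its background correction and offset stay unknown.

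Here log2 of the processed signal minus each array's 75th percentile over non-control spots was used. Outlier spots were dropped and the spots of a probe averaged. Probes well above background on at least 4 of 8 arrays were tested, 39463 of 55681. The brightest probe stood for a gene in lists and likeness. Probes were named through RefSeq accessions (GRCm38.p6 gene table, names only): 26576 probes were named, among them 25863 of the 26392 with a curated mRNA accession. No spot was saturated. Precision is limited by having 4 arrays a group, and a p-value covers the spread among these 8 tumours only.

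The group was the sole term of a limma fit (version 3.58.1, R 4.3.3, functions lmFit and eBayes), which was tested on simulated data. The simulation drew the noise of each probe independently and changed few probes, so it gives no error rate for these data. Alternatives were median centring, quantile normalization, normexp (offset 50) with quantile normalization, the authors' table, spike-in centring on 7 probes, a 75th percentile over probe means (added after seeing the data), no filter, a stricter filter, the mouse number as a block, and each array left out. The files given here hold no mean signal, so normexp used the median signals of spot and background in place of the means planned. Deviations of same-numbered arrays from their group means correlated at 0.200, 0.422, 0.651 and 0.257 for numbers 1, 2, 3 and 5, all above 0.1, so the numbers were taken to pair the samples. The main fit does not use this pairing. With the mouse number as a block, the limma adjusted p was 0.028 for Pdgfra, 0.018 for Pdgfrb and 0.0429 for Tagln. A number is also a slide row.

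The members and gene lists were chosen with earlier results of these data known. Named genes are the members, Hhex, list genes with the smallest p (up to 8 that pass and 2 that do not), up to 3 per cell type list with its defining markers, and the 3 genes most like each member, of which 1 is not reported here. Cox4i2 falls outside this rule and was chosen after its values were seen.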

Additional observations from a re-analysis of the deposited data

Results flagged for a closer look

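Among the 24 groups of 4 arrays examined, 1 held an array far from the others. For Pdgfrb, PRH-labelled mouse 1 was the lowest of its group, and its gap to the nearest array was 0.830 of the group's range, just past Dixon's 95% critical value for 4 arrays. Chance flags about 5% of such groups. Without this array the Pdgfrb difference kept its sign and was no longer called.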

How the results depend on the processing

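Of the values for the 12 member probes and Hhex under each alternative, 194 kept their direction and their side of the threshold, 17 lost a call, 3 gained one and 7 changed sign. The 7 sign changes all came with median centring, which moved the median of all tested probes to -0.27: the Pdgfa probes then differed by -0.056 and -0.19, the Pdgfb probes by -0.24 and -0.019, Pdgfc by -0.15, Cspg4 by -0.067 and Acta2 by -0.048. The same setting gave 24 called genes in the pathway and mural lists, against 15, and 13487 called among all tested probes, against 10327. Spike-in centring gave 0 called member probes (1 at an unadjusted p under 0.05 in limma), 0 called list genes (10 unadjusted) and 3 of all tested probes, against 3, 15 and 10327. In this setting each array is shifted by 7 probes alone, and the cause of the loss was not tested. Without 1 array in turn, 1 to 3 member probes, 9 to 21 list genes and 6591 to 13355 of all tested probes were called. The lowest total came without control 5 and the highest without control 1. With the mouse number as a block, 3 member probes, 13 list genes and 13560 of all tested probes were called. Pairing changed no member's call, and among the named list genes it ended those of Plat, Higd1b and Cald1 and added that of Cox4i2. The number of arrays limits every value, and the dimmest member, Pdgfd, lay nearest to background. The material on the arrays and the direction of the Hhex probe bear on every comparison.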
